A study of Homo sapiens with 4 samples.

Results

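The enzymes described here are 10 genes of the oxidative and carbonyl stress response: the aldo-keto reductases AKR1C1, AKR1C2, AKR1C3 and AKR1B10, and NQO1, HMOX1, GCLC, GCLM, TXNRD1 and SRXN1. All are known targets of the transcription factor NRF2, encoded by NFE2L2. They were chosen by gene symbol, with every probe set that carries one of the symbols and the probe set shared by AKR1C1 and AKR1C2, and they are 10 of the 19775 genes the arrays name. The set was selected on signals and log2 ratios of these same 4 arrays that were already known, so all values below are a description. The cells are HCCLM3, a line from human hepatocellular carcinoma, sorted magnetically by EpCAM, an epithelial adhesion molecule. EpCAM-positive cells received antagomir-429, a cholesterol-conjugated antisense RNA against miR-429, or a negative-control (NC) antagomir, each at 40 µM and added to the medium. EpCAM-negative cells received a miR-429 mimic, a duplex that supplies the mature microRNA, or an NC mimic, each at 100 nM and carried by a lipid transfection reagent. Each treatment lasted 4 days, and each of the 4 groups is 1 Affymetrix U133 Plus 2.0 array.

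In resting cells the adaptor KEAP1 holds NRF2 for ubiquitination and degradation. Oxidants and electrophiles modify KEAP1, NRF2 then accumulates, pairs with small MAF proteins and binds antioxidant response elements in front of its target genes. The targets reduce quinones and reactive carbonyls, degrade heme, make glutathione and keep thioredoxin and peroxiredoxins reduced. Liver tumours often carry an active NRF2 pathway, and AKR1C and AKR1B10 enzymes are well known for high levels in hepatocellular carcinoma. None of the 10 is a textbook target of miR-429, whose best known targets are ZEB1 and ZEB2. The stated aim of the series is to find targets of miR-429.

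The mature sequence that the mimic supplies and the antagomir is directed against is shown with 2 members of its family, since all 3 share the seed, bases 2 to 8, in capitals. The sequences are those of RefSeq, with positions on GRCh38.p14. miR-429 lies at chr1:1169055-1169076 and miR-200b-3p at chr1:1167160-1167181, both on the plus strand, and miR-200c-3p at chr12:6963742-6963764 on the plus strand. The arrays do not measure mature microRNAs, so the level of miR-429 itself was not checked.
hsa-miR-429: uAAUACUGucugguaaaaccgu
hsa-miR-200b-3p: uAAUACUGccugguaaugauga
hsa-miR-200c-3p: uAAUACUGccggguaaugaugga

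The start regions of AKR1C1 and AKR1C2 are shown as an example of how alike these paralogs are. They lie mostly before the start and do not tell how alike the transcripts are where the probes bind. Transcript and probe sequences were not compared. Each window runs from 250 bases before the RefSeq start to 50 bases after it. AKR1C1 is at chr10:4963165-4963464 on the plus strand and AKR1C2 at chr10:5003808-5004107 on the minus strand, both on GRCh38.p14. The aligned windows were identical in 288 of 308 columns, or 93.5%. Capitals mark the 12 bases of each window that have no identical partner in the other. AKR1C1 shared 73.5% and 71.0% of aligned columns with the pair of windows listed for AKR1C3.
AKR1C1: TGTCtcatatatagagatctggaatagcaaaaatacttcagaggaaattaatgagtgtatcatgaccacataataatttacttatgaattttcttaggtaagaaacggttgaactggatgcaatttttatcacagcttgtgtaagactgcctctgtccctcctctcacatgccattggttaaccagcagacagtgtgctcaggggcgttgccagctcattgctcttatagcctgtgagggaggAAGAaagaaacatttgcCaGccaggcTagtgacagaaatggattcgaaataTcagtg
AKR1C2: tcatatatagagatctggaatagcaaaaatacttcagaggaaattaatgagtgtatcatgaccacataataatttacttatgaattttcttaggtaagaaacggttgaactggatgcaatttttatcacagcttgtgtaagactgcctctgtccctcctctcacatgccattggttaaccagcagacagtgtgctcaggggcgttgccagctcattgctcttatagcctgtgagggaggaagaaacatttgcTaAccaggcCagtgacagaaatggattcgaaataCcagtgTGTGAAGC

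The core of the antioxidant response element, TGACNNNGC, was searched on both strands of the windows RefSeq lists for the genes. The 10 windows cover 8 of the 10 genes, and AKR1B10 and HMOX1 were not in the table. A match was present in 3 of the 10 windows, those of GCLM and TXNRD1, against 13.3% of all 35116 windows of 300 bases. The windows reach 250 bases before the start, and elements further away were not searched. A window without a match therefore does not show that a gene lacks the element. GCLM had 1 match, TGACTAAGC on the minus strand from base -34 to -26 relative to the start. TXNRD1 had TGACTTCGC from -99 to -91 on the plus strand and TGACGGAGC from -8 to 1 on the minus strand of its window at chr12:104215529-104215828. Its window at chr12:104286782-104287081 held TGACAAAGC from -102 to -94 on the minus strand. The related AP-1 site, TGAGTCA, was in 0 of the 10 windows and in 4.95% of all windows. A core with TCA in place of NNN holds both motifs, on opposite strands. The GCLM window, chr1:93909381-93909680 on the minus strand, and the TXNRD1 window at the second position, on the plus strand, are printed with the match in capitals, read on the strand of the gene, as examples of where a core lies.
GCLM: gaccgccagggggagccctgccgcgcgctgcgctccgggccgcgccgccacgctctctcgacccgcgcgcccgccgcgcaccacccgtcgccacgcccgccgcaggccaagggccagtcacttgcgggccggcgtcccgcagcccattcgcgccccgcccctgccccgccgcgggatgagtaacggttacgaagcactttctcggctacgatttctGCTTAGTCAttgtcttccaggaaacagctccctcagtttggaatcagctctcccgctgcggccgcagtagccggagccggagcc
TXNRD1: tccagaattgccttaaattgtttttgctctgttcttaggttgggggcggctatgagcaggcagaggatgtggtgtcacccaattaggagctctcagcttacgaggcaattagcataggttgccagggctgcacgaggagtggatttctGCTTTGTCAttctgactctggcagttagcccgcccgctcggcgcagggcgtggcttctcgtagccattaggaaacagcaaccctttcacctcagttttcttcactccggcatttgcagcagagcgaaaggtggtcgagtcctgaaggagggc

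The values are MAS5 signals, which the authors deposited on the log2 scale. Back on the linear scale, each array was found to have a trimmed mean of 500.1. A gene is given by its brightest single-gene probe set. The floor is the median log2 signal over all probe sets, equal to a signal of 52.9, and a gene with a mean at or above it is called expressed. All 10 genes were expressed, among 13180 expressed genes of the 19775. They carry 24 probe sets, of which 18 had a mean at or above the floor and 16 were at or above it on all 4 arrays. With 1 array per group there is no replicate error, so no difference has a test, and a gene is only counted as past or within 2-fold. As the one available measure of scatter, a ratio is set against the robust SD of the log2 ratios of genes of like signal, taken in 4 equal groups of expressed genes ordered by signal. This scatter holds real changes as well as noise and is no replicate error. The share of all expressed genes within 1 robust SD was not counted. Counts of the 10 genes within it therefore stand without a background. In these bulk samples a smaller share of expressing cells and less RNA per cell cannot be told apart.

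EPCAM, the gene of the sort, had signals of 913 in antagomir-429 cells and 1235 in NC antagomir cells, both EpCAM-positive, against 3838 in miR-429 mimic cells and 1106 in NC mimic cells, both EpCAM-negative. The EPCAM mRNA of the 2 control arrays therefore differed by a log2 ratio of 0.16, EpCAM-positive over EpCAM-negative, after 4 days in culture. The labels of the sort are kept below for what they say of the starting cells. The actin control probe sets gave ratios of 3′ to 5′ signal of 3.07 in antagomir-429 cells, 3.12 in NC antagomir cells, 2.63 in miR-429 mimic cells and 3.41 in NC mimic cells, and those of GAPDH were between 0.900 and 0.922.

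By their brightest probe sets, the enzymes other than AKR1C2 differed by under 2-fold over the 4 arrays. The highest of the 4 arrays was under 2-fold above the lowest for 9 of the 10 genes and under 1.5-fold for 6, with a median range of 1.39-fold. Among all expressed genes 77.3% had a range under 2-fold. The median log2 range was 0.48 for the 10 enzymes, 0.60 for all expressed genes and 0.38 for the brightest of the 4 signal groups, in which AKR1C3, NQO1, GCLM, TXNRD1 and SRXN1 lie. The lowest of the 4 signals was on the miR-429 mimic array for 7 of the 10 genes, the exceptions being GCLC, GCLM and TXNRD1. The share of all expressed genes with their lowest signal on that array was not counted. Nothing particular to these enzymes is therefore read from the 7.

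**Figure D1:**
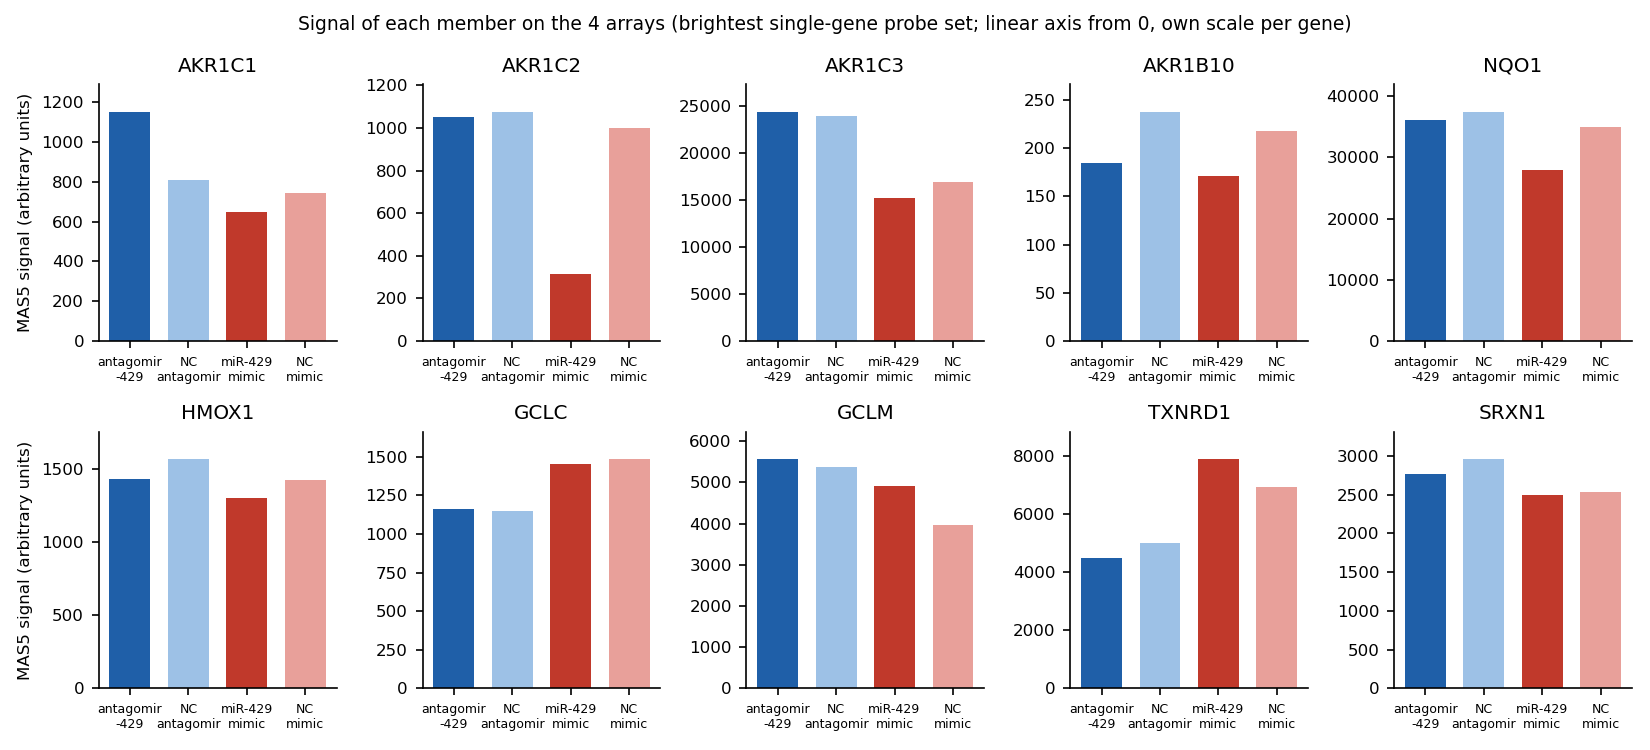
MAS5 signal in arbitrary units of each of the 10 genes on the 4 arrays, from the brightest single-gene probe set; each bar is 1 array, so there are no error bars, and each gene has its own axis from 0. AKR1C2 on the miR-429 mimic array, at 317, is the one bar that stands more than 2-fold below the other arrays of its gene.

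In miR-429 mimic cells, AKR1C2 alone of the 10 genes was past 2-fold, and it was lower; 0 were past 2-fold higher. Among all expressed genes 3.76% were lower and 5.25% higher by 2-fold or more in the same comparison, and in the brightest signal group 0.607% were past 2-fold either way. The log2 ratio to the NC mimic was below 0 for 8 of the 10 genes and above 0 for GCLM and TXNRD1, while 50.1% of all expressed genes were below 0. The median of the 10 was -0.14, against -0.0016 for all expressed genes. The brightest 10% of expressed genes, 1318 genes that include AKR1C3 and NQO1, had a median of -0.21 with 72.2% below 0, and the part of signal level in the downward ratios was not tested. Of the 10 ratios, 9 lay within 1 robust SD of 0. With the median over probe sets in place of the brightest, AKR1C2 was at -0.32 and within 2-fold, and GCLM at -1.53 was the 1 gene past it. That GCLM value is the ratio of its dim probe set 234986_at. Of the expressed genes past 2-fold, 58.2% were higher as deposited and 46.6% after centring each array on the median log2 signal of its expressed probe sets.

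Antagomir-429 left every one of the 10 genes within 2-fold of the NC antagomir, with ratios between -0.36 and 0.51. The background was 3.72% of expressed genes higher and 3.53% lower by 2-fold or more, and 0.0303% past 2-fold either way in the brightest signal group. Ratios were above 0 for 4 genes and below 0 for 6, with a median of -0.04 against 0.0067 for all expressed genes. AKR1C1 at 0.51 and TXNRD1 at -0.16 were the genes outside 1 robust SD. Of genes of like signal, 7.62% had a ratio as large in size as AKR1C1 and 30.2% as TXNRD1.

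The EpCAM-positive NC antagomir array set against the EpCAM-negative NC mimic array likewise had 0 of the 10 genes past 2-fold. Here 3.62% of all expressed genes were higher in EpCAM-positive cells and 4.7% lower by 2-fold or more, and 0.303% of the brightest signal group past 2-fold either way. Ratios were above 0 for 8 of the 10 genes, with GCLC and TXNRD1 below 0, and 47.8% of all expressed genes were above 0. The median was 0.12, against -0.021 for all expressed genes, and 6 of the 10 lay within 1 robust SD. The other 4 were AKR1C3 and GCLM, higher in EpCAM-positive cells, and TXNRD1 and GCLC, lower there. Of genes of like signal, 7.56% had a ratio as large in size as AKR1C3, 11.2% as GCLM, 8.92% as TXNRD1 and 29.8% as GCLC. With the median over probe sets AKR1C1 was at -1.01, but the medians of the 2 arrays came from different probe sets. On the NC antagomir array the median was 49.6, from 217626_at, which is under the floor. On the NC mimic array it came from 1555856_s_at. Against the floor the NC antagomir median was at least 1.88-fold lower, so AKR1C1 is not shown past 2-fold. The sort and the reagent with its delivery cannot be told apart in this comparison. Its 2 arrays are also the controls of the antagomir and of the mimic, so its values are not independent of those comparisons.

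**Figure D2:**
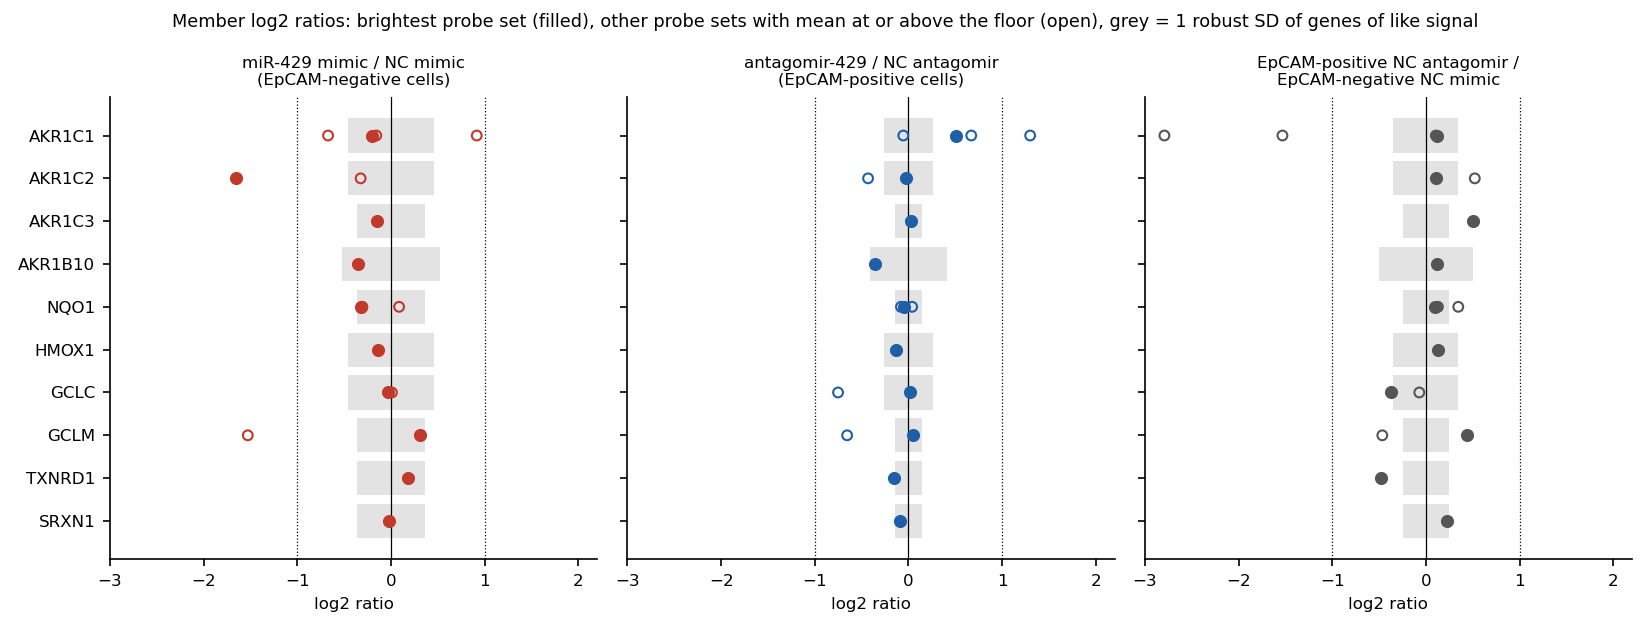
Log2 ratios of the 10 genes in the 3 comparisons (x axis); filled points are the brightest probe set of each gene, open points other probe sets with a mean at or above the floor, grey bands 1 robust SD of expressed genes of like signal, and dotted lines 2-fold. AKR1C2 in miR-429 mimic cells, at -1.66, is the only filled point beyond 2-fold, and its open point there, at -0.32, is within 2-fold. The open points of AKR1C1 and GCLM also lie away from the filled ones.

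The aldo-keto reductases use NADPH to reduce aldehydes and ketones. AKR1C2 reduces dihydrotestosterone to a weaker androgen. Its brightest probe set, 211653_x_at, had a signal of 1053 in antagomir-429 cells, 1075 in NC antagomir cells, 317 in miR-429 mimic cells and 999 in NC mimic cells. The other 3 arrays lie close together and the mimic array stands alone below them. The mimic over NC mimic log2 ratio was -1.66, a 3.16-fold lower signal and 3.59 robust SDs from 0. Of the 3295 genes of like signal, AKR1C2 itself among them, 0.0607% had a ratio as large in size. The set was chosen with these ratios known, so this share only describes the value and is no test. The antagomir ratio was -0.03 and the EpCAM-positive over EpCAM-negative ratio 0.11.

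A second AKR1C2 probe set, 209699_x_at, did not show the low value to the same size. Its signals were 342 in antagomir-429 cells, 461 in NC antagomir cells, 256 in miR-429 mimic cells and 321 in NC mimic cells. The mimic array is again the lowest, but by a log2 ratio of -0.32 to the NC mimic. Its antagomir ratio was -0.43 and its EpCAM ratio 0.52. The third AKR1C2 probe set, 244266_at, was under the floor on all 4 arrays. The suffix x_at marks probe sets whose probes can also bind other transcripts, and both expressed AKR1C2 probe sets carry it.

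AKR1C1 inactivates progesterone. Its brightest probe set, 204151_x_at, had signals of 1151 in antagomir-429 cells, 811 in NC antagomir cells, 646 in miR-429 mimic cells and 746 in NC mimic cells. The antagomir-429 array is the highest and the mimic array the lowest, with log2 ratios of 0.51 for antagomir over NC antagomir and -0.21 for mimic over NC mimic. The EpCAM ratio was 0.12. A second x_at probe set, 216594_x_at, had 826 in antagomir-429 cells, 858 in NC antagomir cells, 500 in miR-429 mimic cells and 797 in NC mimic cells. It shares the low mimic array, at a log2 ratio of -0.67, but not the high antagomir array, at -0.06. The 2 probe sets therefore disagree on the antagomir, and the value of 0.51 rests on 1 of them.

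A pair of dim AKR1C1 probe sets split the arrays another way. Probe set 1555856_s_at had 35.4 in antagomir-429 cells and 14.4 in NC antagomir cells, both under the floor, against 188 in miR-429 mimic cells and 99.6 in NC mimic cells. Probe set 1555855_at had 45.6 in antagomir-429 cells and 28.6 in NC antagomir cells, again both under the floor, against 74.2 in miR-429 mimic cells and 82.8 in NC mimic cells. Both were above the floor in the EpCAM-negative arrays only. Against the floor, the NC antagomir array was at least 1.88-fold lower than the NC mimic array for the first and at least 1.56-fold lower for the second. The files give 1 source accession for both probe sets, which are thus no independent readings. AKR1C1 was also represented by 217626_at, which was under the floor on all 4 arrays.

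The probe set shared by AKR1C1 and AKR1C2, 1555854_at, was under the floor on every array. Its signal was 1 in antagomir-429 cells and 1 in miR-429 mimic cells, the lowest value an array holds, against 41.4 in NC antagomir cells and 27.0 in NC mimic cells. No fold is given, since both sides of each comparison are under the floor.

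**Figure D3:**
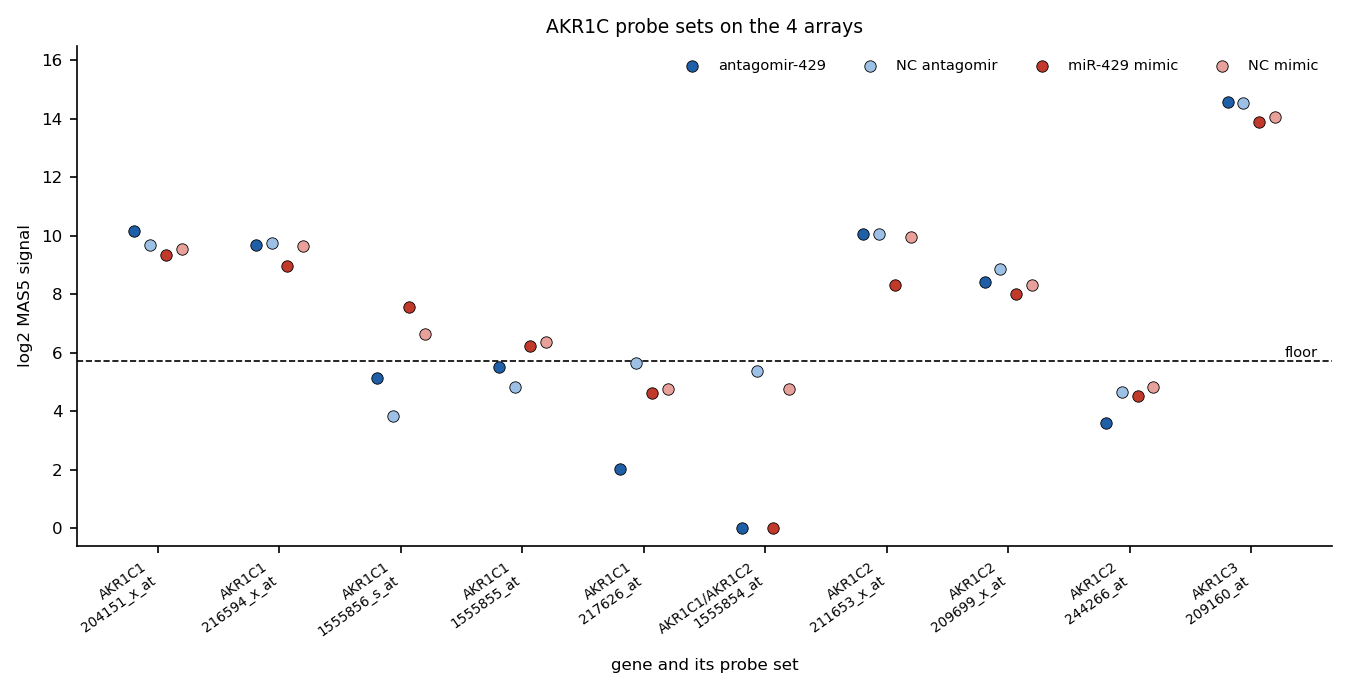
Log2 MAS5 signal (y axis) of the 10 probe sets of AKR1C1, AKR1C2 and AKR1C3 on the 4 arrays, each point 1 array, with the floor dashed. The low miR-429 mimic point of 211653_x_at is not matched in size by 209699_x_at, and the dim AKR1C1 probe sets 1555856_s_at and 1555855_at are above the floor in the EpCAM-negative arrays only.

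AKR1C3 makes active androgens and prostaglandin F. It has 1 probe set, 209160_at, with signals of 24407 in antagomir-429 cells, 23986 in NC antagomir cells, 15204 in miR-429 mimic cells and 16916 in NC mimic cells. The EpCAM-positive arrays are both above both EpCAM-negative arrays. The EpCAM-positive over EpCAM-negative log2 ratio of the controls was 0.50, or 2.08 robust SDs, while the mimic ratio was -0.15 and the antagomir ratio 0.03. After quantile normalization the mimic ratio was 0.0045.

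AKR1B10 reduces retinaldehyde and lipid aldehydes. Its only probe set, 206561_s_at, had 185 in antagomir-429 cells, 238 in NC antagomir cells, 171 in miR-429 mimic cells and 218 in NC mimic cells. The signal was lower than the control with either reagent, at log2 ratios of -0.36 for the antagomir and -0.35 for the mimic, each within 1 robust SD of genes of like signal. The EpCAM ratio was 0.12. AKR1B15, a close relative next to AKR1B10, had no single-gene probe set here, and binding of its transcript to the AKR1B10 probes was not tested.

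NQO1 reduces quinones in a single step and is the standard readout of NRF2 activity. Probe set 210519_s_at had signals of 36094 in antagomir-429 cells, 37383 in NC antagomir cells, 27989 in miR-429 mimic cells and 34941 in NC mimic cells. The mimic array is the lowest, at a log2 ratio of -0.32, or -0.07 after quantile normalization, and the other 3 arrays lie close together. The antagomir ratio was -0.05 and the EpCAM ratio 0.10. A second probe set, 201467_s_at, had 15468 in antagomir-429 cells, 16354 in NC antagomir cells, 12103 in miR-429 mimic cells and 14965 in NC mimic cells, and its mimic ratio was -0.31. The third, 201468_s_at, had 7343 in antagomir-429 cells, 7148 in NC antagomir cells, 5971 in miR-429 mimic cells and 5626 in NC mimic cells, and its mimic ratio had the other sign, 0.09. All 3 probe sets show small differences, and they disagree on the direction with the mimic.

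HMOX1 degrades heme to biliverdin, iron and carbon monoxide, and is repressed by BACH1. Its probe set had 1428 in antagomir-429 cells, 1564 in NC antagomir cells, 1298 in miR-429 mimic cells and 1425 in NC mimic cells. The 4 arrays span a 1.20-fold range. The log2 ratio was -0.13 with the antagomir, -0.13 with the mimic and 0.13 between the controls.

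GCLC is the catalytic subunit of glutamate-cysteine ligase, the rate-limiting step of glutathione synthesis. Its brightest probe set, 202923_s_at, had 1164 in antagomir-429 cells, 1149 in NC antagomir cells, 1456 in miR-429 mimic cells and 1485 in NC mimic cells. Each reagent stayed next to its control, with log2 ratios of 0.02 for the antagomir and -0.03 for the mimic, and both EpCAM-positive arrays were below both EpCAM-negative arrays at a control ratio of -0.37. The second probe set, 202922_at, had 240 in antagomir-429 cells, 404 in NC antagomir cells, 427 in miR-429 mimic cells and 424 in NC mimic cells. There the antagomir-429 array alone is low, at -0.75, and the control ratio is -0.07. The third probe set, 1555330_at, had a mean under the floor.

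GCLM is the modifier subunit that raises the affinity of the ligase for glutamate. Its brightest probe set, 203925_at, had signals of 5563 in antagomir-429 cells, 5371 in NC antagomir cells, 4919 in miR-429 mimic cells and 3969 in NC mimic cells. The NC mimic array is the lowest, so the log2 ratio was 0.31 for the mimic and 0.44, or 1.80 robust SDs, for EpCAM-positive over EpCAM-negative controls, and 0.05 for the antagomir. Probe set 234986_at read the other way: 81.4 in antagomir-429 cells, 128 in NC antagomir cells, 61.3 in miR-429 mimic cells and 177 in NC mimic cells. Its ratios were -1.53 for the mimic, -0.65 for the antagomir and -0.47 for EpCAM. The sign for GCLM with the mimic thus depends on the probe set. The 2 are not equal readings, since 234986_at is far dimmer and its mimic value of 61.3 lies near the floor. The third, 236140_at, had a mean under the floor. The 2 subunits of the ligase also read opposite ways between the controls, GCLC lower and GCLM higher in EpCAM-positive cells, by their brightest probe sets.

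TXNRD1, the cytosolic thioredoxin reductase, returns oxidised thioredoxin to its active form. Its probe set 201266_at had 4469 in antagomir-429 cells, 4989 in NC antagomir cells, 7872 in miR-429 mimic cells and 6933 in NC mimic cells. Both EpCAM-positive arrays are below both EpCAM-negative arrays, with a control log2 ratio of -0.47, or 1.96 robust SDs. The mimic ratio was 0.18 and the antagomir ratio -0.16, or 1.08 robust SDs. A second probe set, 1561080_at, was dim, with a mean under the floor, and with the median over probe sets the mimic ratio turned to -0.54 and the antagomir ratio was -0.06. SRXN1, sulfiredoxin, repairs overoxidised peroxiredoxins. It had 2773 in antagomir-429 cells, 2958 in NC antagomir cells, 2497 in miR-429 mimic cells and 2529.5 in NC mimic cells, a 1.18-fold range over the 4 arrays and the narrowest of the 10 genes. Its log2 ratios were -0.09 for the antagomir, -0.02 for the mimic and 0.23 between the controls.

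The regulators of the pathway were read in the same way. NFE2L2, which encodes NRF2, had 1366 in antagomir-429 cells, 1033 in NC antagomir cells, 1210 in miR-429 mimic cells and 1038 in NC mimic cells, with log2 ratios of 0.40 for the antagomir and 0.22 for the mimic. KEAP1 had 1653 in antagomir-429 cells, 1513 in NC antagomir cells, 1223 in miR-429 mimic cells and 1440 in NC mimic cells. MAFG, a small MAF partner of NRF2, had log2 ratios of 0.27 for the antagomir, -0.32 for the mimic and -0.38 between the controls. BACH1, a repressor that occupies antioxidant response elements, had 85.9 in antagomir-429 cells and 72.1 in NC antagomir cells, against 203 in miR-429 mimic cells and 179 in NC mimic cells. The 2 EpCAM-positive arrays are thus both below the EpCAM-negative arrays, with a control ratio of -1.32, and a second probe set of BACH1 gave -0.91. The BACH1 signals of 85.9 and 72.1 are not far above the floor of 52.9. HMOX1, which BACH1 represses, had a ratio of 0.13 in the same comparison. A link between the BACH1 and HMOX1 values was not tested.

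Around the 10 enzymes, 7 lists of pathway genes, 72 genes of which 63 were expressed, were counted by the same rule. With the mimic 2 were past 2-fold higher, or 3.17% against 5.25% of all expressed genes, and 0 lower, against 3.76%. With the antagomir 2 were higher, or 3.17% against 3.72%, and 1 lower, or 1.59% against 3.53%. In EpCAM-positive over EpCAM-negative controls 1 was higher, or 1.59% against 3.62%, and 2 lower, or 3.17% against 4.7%. These counts use measured ratios, and AKR1E2, counted once as higher and once as lower, is not shown past 2-fold in either comparison when its dimmer array is set to the floor. No difference from the shares of all expressed genes is read from these counts. The median log2 ratio over the 63 was -0.23 for the mimic, 0.02 for the antagomir and -0.06 between the controls. The mimic median was -0.03 after quantile normalization. The other 2 medians lay near 0 and changed sign under at least 1 alternative.

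Among 11 expressed regulators of NRF2, BTRC, a ubiquitin ligase subunit that binds NRF2, was the 1 gene past 2-fold with the mimic, at 210 against 91.5 in NC mimic cells, a log2 ratio of 1.20. Its probe sets ranged from -0.64 to 1.86. BACH1 was the 1 past 2-fold between the controls. The median ratio of the list was 0.12 for the antagomir and -0.01 for the mimic, the second turning to 0.12 with the median over probe sets.

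Of the 15 expressed glutathione genes, CHAC1, which breaks down glutathione, was past 2-fold with both reagents. It had 166 in antagomir-429 cells against 60.5 in NC antagomir cells, a log2 ratio of 1.45, and 170 in miR-429 mimic cells against 72.5 in NC mimic cells, a ratio of 1.23. The CHAC1 signal was thus higher with a reagent that supplies miR-429 and with one that blocks it. Both control values, 60.5 and 72.5, lie near the floor of 52.9, and CHAC1 has 1 probe set here. GSTA1, a glutathione transferase, had 135 in EpCAM-positive control cells against 53.5 in EpCAM-negative control cells, a ratio of 1.34, the second value lying near the floor. The list median was -0.26 for the mimic, 0.07 for the antagomir and -0.08 between the controls. The mimic median was -0.0050 after quantile normalization, and the antagomir median turned to -0.03 with the median over probe sets.

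None of the 9 expressed thioredoxin genes or the 5 expressed NADPH supply genes was past 2-fold in any comparison by its brightest probe set, beside the shares of expressed genes given above. The largest mimic ratios were 0.51 for TXNIP, an inhibitor of thioredoxin, and -0.48 for TXN2, and the largest antagomir ratios 0.57 for PRDX3 and 0.48 for TXNRD2. The other TXNRD2 probe set had the opposite antagomir ratio, -0.85. TKT and IDH1 had mimic ratios of -0.45 and -0.43, with other IDH1 probe sets reaching 0.18 and TXNIP ones -0.09, and ME1 and PGD antagomir ratios of 0.19 and 0.13. A second expressed probe set of PGD, which makes NADPH in the pentose phosphate pathway, was past 2-fold in all 3 comparisons. Its ratios were 2.60 for the mimic, -1.41 for the antagomir and 2.95 between the controls. These are measured ratios, not bounds against the floor, and those of 2.60 and 2.95 share the NC mimic array. The list medians with the mimic were -0.29 for the thioredoxin genes and -0.32 for the NADPH genes, but after quantile normalization they were 0.01 and -0.07. Of the 5 expressed heme and iron genes, 0 were past 2-fold by their brightest probe set, with BLVRB at -0.72 and FTL at -0.45 with the mimic. Other probe sets reached -1.53 for BLVRA and 1.32 for FECH with the mimic.

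Among 14 expressed conjugation and carbonyl enzymes and exporters, OSGIN1 was at least 2.09-fold lower in antagomir-429 cells, its signal of 49.1 being under the floor, against 111 in NC antagomir cells. ALDH3A1, an aldehyde dehydrogenase, had a mimic ratio of -0.81. Of the 4 expressed other aldo-keto reductases, AKR1E2, which reduces anhydrofructose, had 105 in antagomir-429 cells, 16.3 in NC antagomir cells, 126 in miR-429 mimic cells and 95.7 in NC mimic cells. It was at least 1.99-fold higher with the antagomir and at least 1.81-fold lower in EpCAM-positive than in EpCAM-negative controls, and both values rest on the one NC antagomir array under the floor. AKR7A3 and AKR7A2, which reduce aflatoxin dialdehyde and succinic semialdehyde, had mimic ratios of -0.80 and -0.53. The mimic medians were -0.07 for the conjugation list, -0.28 for the other aldo-keto reductases and -0.30 for the heme and iron genes. Over the alternatives these ran from -0.18 to -0.01, from -0.66 to -0.03 and from -0.41 to -0.09.

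**Figure D4:**
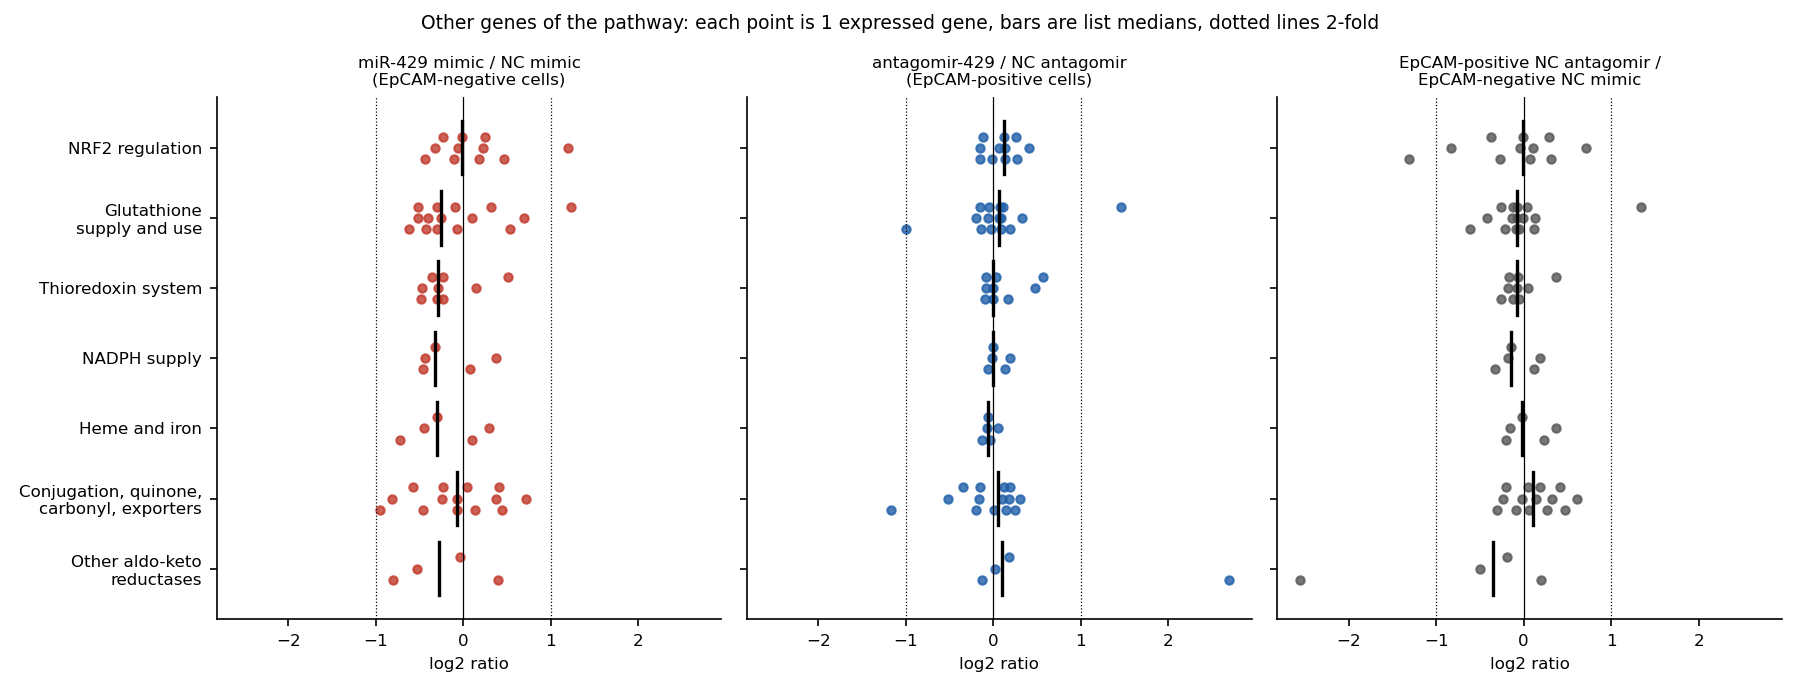
Log2 ratios of the expressed genes of 7 pathway lists (rows) in the 3 comparisons (columns); each point is 1 gene, the bar the list median, and dotted lines 2-fold. Most points lie between the dotted lines; CHAC1 lies beyond 2-fold with the mimic and with the antagomir, and AKR1E2 at the right of the antagomir column and at the left of the control column.

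AKR1C2 had the widest range of the 10 genes by its brightest probe set, 211653_x_at. The low mimic value was not of the same size in 209699_x_at. The pattern of 211653_x_at was set beside 7485 other genes at or above the 75th percentile of signal, 265.6, on all 4 arrays. The measure was the Euclidean distance between log2 signals centred on each gene's mean over the 4 arrays. The 5 nearest genes were SSBP4, SMIM27, RARRES2, PYROXD2 and ATP2A1-AS1, at distances of 0.51, 0.60, 0.60, 0.64 and 0.68. SSBP4 had 2913 in antagomir-429 cells, 3107 in NC antagomir cells, 1378 in miR-429 mimic cells and 3130 in NC mimic cells. That all 5 have their lowest signal on the miR-429 mimic array follows from how they were picked, since that array sets the pattern of AKR1C2. Their mimic log2 ratios ran from -0.83 for ATP2A1-AS1 to -1.21 for SMIM27, nearer to 0 than the -1.66 of 211653_x_at.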

How the data were processed

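Total RNA of 4 sorted HCCLM3 samples was hybridised to 1-colour Affymetrix U133 Plus 2.0 arrays, 1 per group, after labelling from the 3′ end. The deposited values are log2 signals of MAS5, which the submitters' processing notes name. Version and target level are not given in the sources. Back on the linear scale, each array had a trimmed mean of 500.1 (2% left out per tail).

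Of 54613 probe sets without controls, the platform annotation, which can be old, names 1 gene for 41091 and several for 1801. A gene is its brightest single-gene probe set by mean log2 signal; the floor, log2 ratio and 2-fold rule are given in the report, with folds against an array under the floor as bounds. No p-value or standard error was computed, since each group has 1 array. The members, lists, filters and rules for naming genes (the 4 largest past 2-fold per list, or else the 2 largest) were chosen with earlier results of these data known. Alternatives tried were an offset of 50, median centring, quantile normalization, no filter or the 75th percentile as filter, the median over probe sets, and shared probe sets counted. Sequences come from RefSeq on GRCh38.p14; proteins and 3′ untranslated regions were not analysed here. Python 3.11.15, pandas 2.3.3, numpy 2.4.6 and matplotlib 3.10.9 were used. The log2 ratio, the 2-fold rule and the robust SD were tried on simulated signals. Their noise was the same at every signal level, unlike the scatter on the arrays. The choice of probe sets and the bounds were not tried in this way.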

Additional observations from a re-analysis of the deposited data

How the results depend on the processing

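The count of enzymes past 2-fold and their median log2 ratio were recomputed under 7 alternatives in each of 3 comparisons. The count was as first given in 20 cases. That between EpCAM-positive and EpCAM-negative controls became 1 with the median over probe sets, which takes AKR1C1 to -1.01. The AKR1C1 median on the NC antagomir array is under the floor, and against the floor AKR1C1 is not shown past 2-fold. With the median over probe sets the mimic count was again 1, but the gene was GCLM at -1.53, while AKR1C2 was at -0.32. The GCLM value is that of its dim probe set 234986_at. The median ratio with the mimic was -0.25 after centring each array on its median, which moves the median of all expressed genes to -0.11, and between -0.25 and -0.06 over all alternatives. No median of the 10 enzymes changed sign. Of the medians of the pathway lists, 143 stayed within 0.1 and 25 did not. For single enzymes 196 values moved by less than the scatter of like genes, and all 11 that moved by more did so with the median over probe sets, AKR1C1, AKR1C2, GCLC, GCLM and TXNRD1 among them. The filter at the 75th percentile drops AKR1B10. Counts over all genes past 2-fold depend on the filter and the offset: 692 higher and 496 lower with the mimic ran from 146 to 2539 and from 36 to 2248, 490 and 465 with the antagomir from 24 to 2226 and from 15 to 2412, and 477 and 619 between the controls from 60 to 2264 and from 60 to 2539. No paired analysis was possible because each group has 1 array. Signals near the floor limit the dim AKR1C1 probe sets, the GCLM probe set 234986_at, BACH1, CHAC1, GSTA1, OSGIN1 and AKR1E2.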

Other observations

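Markers of the line and of other cell types were read beside the enzymes. Of 5 markers of a hepatocellular or epithelial line 4 were expressed, and ALB was under the floor. KRT8 lay between 28365 and 33449 and KRT18 between 42723 and 50499 over the 4 arrays, AFP between 91.5 and 119, and APOA1 between 66.2 and 91.7. Of 6 measured markers of other cell types PTPRC, of leukocytes, was not expressed. CD3E, of T cells, had 60.7 in antagomir-429 cells, 88.3 in NC antagomir cells, 136 in miR-429 mimic cells and 54.8 in NC mimic cells, a mimic log2 ratio of 1.32. PECAM1, of endothelial cells, had 182 in antagomir-429 cells, 158 in NC antagomir cells, 234 in miR-429 mimic cells and 126 in NC mimic cells. DCN, of fibroblasts, had 167 in antagomir-429 cells, 256 in NC antagomir cells, 222 in miR-429 mimic cells and 384 in NC mimic cells. COL1A1, a fibroblast collagen that some carcinoma lines also make, had 7633 in antagomir-429 cells, 10500 in NC antagomir cells, 7404 in miR-429 mimic cells and 7162 in NC mimic cells. VWF, of endothelial cells, had 102 in antagomir-429 cells, 27.3 in NC antagomir cells, 126 in miR-429 mimic cells and 37.3 in NC mimic cells. Both control values of VWF are under the floor of 52.9. Against the floor, VWF was at least 1.93-fold higher with the antagomir and at least 2.39-fold higher with the mimic. The CD3E value of 54.8 in NC mimic cells also lies near the floor. Presence of other cell types was not tested. The part of these markers in the enzymes' values was not tested.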
